A study of Canis lupus familiaris with 6 samples.

Results

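The mitochondrial ribosomal protein genes were taken as every gene of the deposited table whose name starts with MRPL or MRPS followed by a number. This rule gave 74 of 23299 genes, 47 named for the large subunit (MRPL) and 27 for the small subunit (MRPS). RNA-seq of poly(A) RNA measured them in canine adipose-derived stem cells, precursor cells grown from dog fat, with 6 libraries in all. All 6 came from cells kept for 14 days in an adipogenic medium, begun after 2 days of culture, which held the PPARG agonist rosiglitazone at 200 nM, the glucocorticoid dexamethasone at 1 µM and insulin at 10 µg/mL. The control group (n = 3) received the solvent DMSO, and the other group (n = 3) received 1 µM bisphenol A (BPA), a plastic monomer with oestrogen-like activity. The study's stated subject is BPA and obesity in dogs. No label ties a replicate number to an animal or culture, so each p-value speaks only of the spread between these libraries, which may be technical.

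Mitochondria keep their own ribosome, which makes the few respiratory chain proteins encoded by mitochondrial DNA. Its RNA comes from mitochondrial DNA, but its proteins are encoded in the nucleus, made in the cytosol and imported. Some descend from the bacterial ribosome, and others occur only in mitochondria. The small subunit reads the mRNA and the large subunit joins the amino acids, and fat cells draw on the respiratory chain as they mature.

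Values are TPM (transcripts per 1000000), a length-corrected share of each library, so levels can be compared between genes. Differences are on the log2(TPM + 1) scale. Genes with a mean of at least 1 on that scale were tested, which kept 71 members (46 large and 25 small) of 12277 genes. The 3 members below the filter are given as levels. A lower share in bulk RNA cannot tell fewer cells of a type from less RNA per cell. The cells carried stromal genes at high levels (LUM averaged 2765 TPM and DCN 1136 TPM) and the fat cell genes ADIPOQ (21.8 TPM) and LPL (481 TPM). The stromal surface marker NT5E averaged 0.176 TPM. Of markers of other cell types, the pan-leukocyte gene PTPRC averaged 0.00226 TPM, but the macrophage genes CD14, CD68 and CSF1R averaged 29.1, 5.27 and 2.24 TPM. All 5 endothelial markers were below the filter (PECAM1 0.00249 TPM), and so were the 3 epithelial markers found. Of 5 smooth muscle and pericyte markers 3 were found. The contractile gene ACTA2 averaged 1744 TPM and CSPG4 18.2 TPM, but MYH11 averaged 0.283 TPM, below the filter. BPA replicate 3 stood apart from the other libraries: on the first principal component, with 79.8% of the variance, it scored 61.1 and the others from -29.9 to 11.3, control replicate 2 being the next highest. Counts and named changes that it moved are therefore also given without it.

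The members spanned a wide range of levels. The tested members had a median of 44.3 TPM, against 11.4 TPM for all tested genes. On average 56 of the 74 lay between 10 and 200 TPM, 3 lay above and 15 below. As a share of library TPM, the 74 together took 0.530%, 0.501% and 0.524% in the controls and 0.520%, 0.515% and 0.424% with BPA, each in the order of replicates 1, 2 and 3. The last of these, BPA replicate 3, held the smallest share, and the other 5 libraries lay close together.

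**Figure D1:**
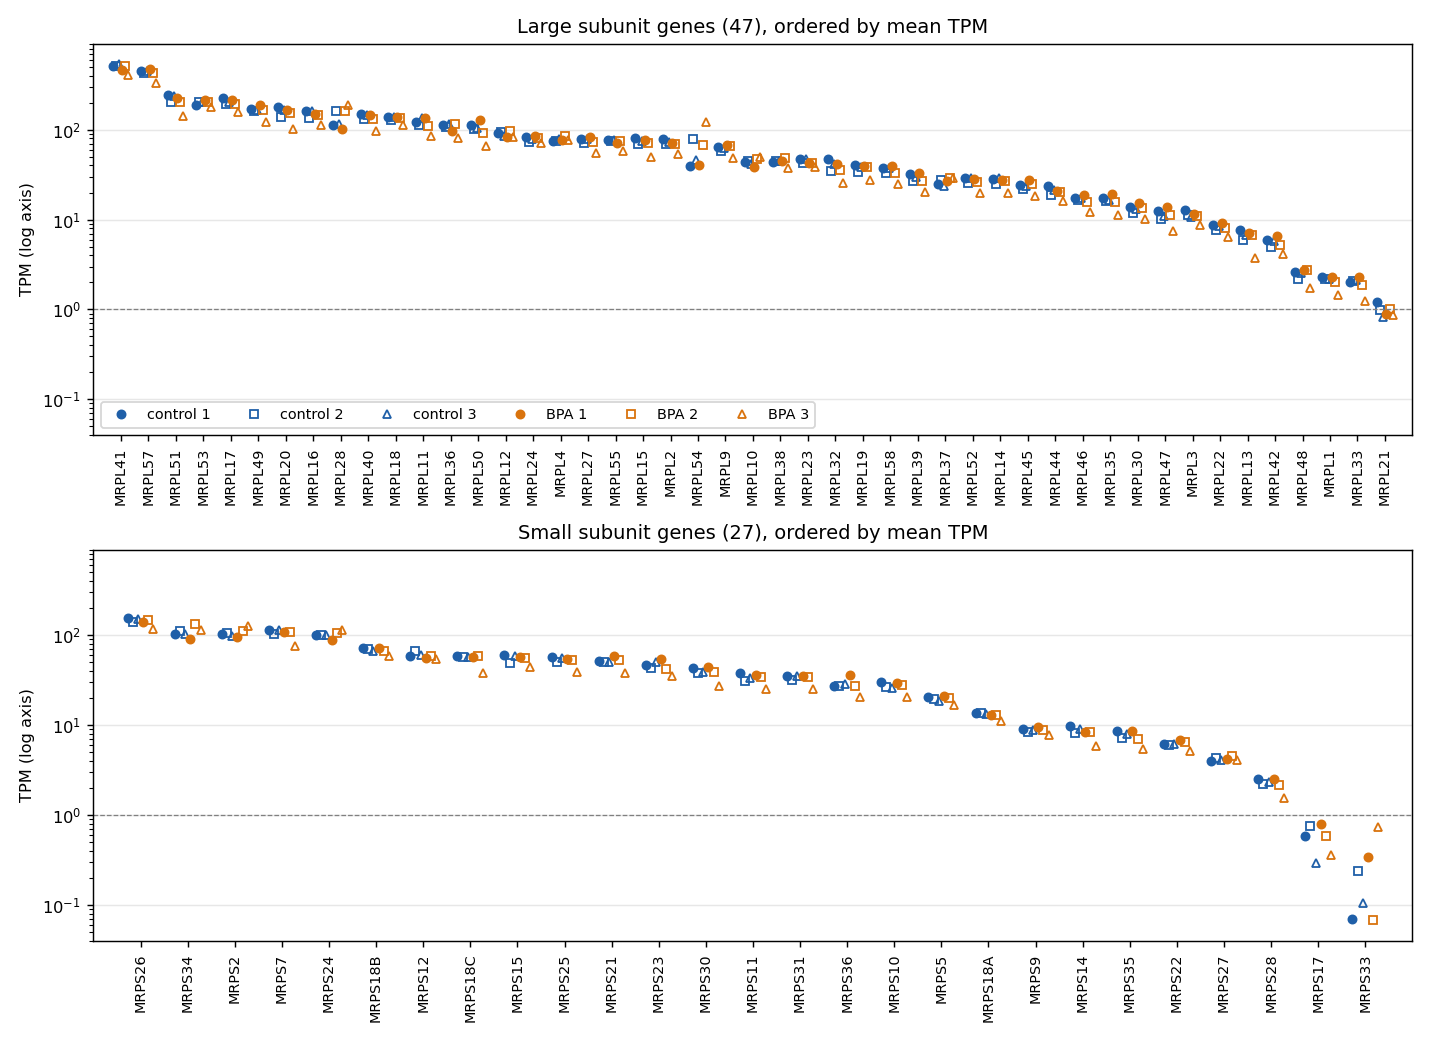
Level of each mitochondrial ribosomal protein gene in each of the 6 libraries, in TPM on a log axis, with large subunit genes above and small subunit genes below, ordered by mean; points of a gene are offset sideways by library and the dashed line marks 1 TPM. MRPL41 leads the large subunit and MRPS26 the small, and the open orange triangles of BPA replicate 3 lie lowest for most genes.

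Among large subunit genes MRPL41, a mitochondria-specific protein also studied in apoptosis, was the most abundant. It measured 510, 506 and 535 TPM in control replicates 1, 2 and 3 and 463, 515 and 411 TPM in BPA replicates 1, 2 and 3. MRPL57 followed at 455, 423 and 446 TPM in control and 476, 423 and 327 TPM with BPA. MRPL41 lay above MRPL57 in every library but BPA replicate 1, where the order was turned. Then came MRPL51 (mean 210 TPM over 6 libraries), MRPL53 (198 TPM) and MRPL17 (198 TPM), of which the last has a bacterial counterpart. The ranges of MRPL53 (179 to 215 TPM) and MRPL17 (157 to 223 TPM) overlapped, so their order is not settled.

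At the low end of the tested large subunit genes were MRPL33 (1.93 TPM), MRPL1 (2.08 TPM) and MRPL48 (2.41 TPM). MRPL1 belongs to the stalk beside the exit site for tRNA, and MRPL48 to the central protuberance at the top of the subunit. MRPL21, with a mean of 0.963 TPM, lay just under the filter.

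Small subunit genes peaked lower. MRPS26 averaged 143 TPM over the 6 libraries, MRPS34 109 TPM, MRPS2 106 TPM, MRPS7 105 TPM and MRPS24 102 TPM. MRPS7 binds the RNA of the subunit's head, and MRPS2 and MRPS24 descend from bacterial proteins. MRPS34, MRPS2, MRPS7 and MRPS24 overlapped in range, from 90.7 to 132, 94.9 to 125, 76.8 to 116 and 89.3 to 116 TPM. MRPS28, MRPS27 and MRPS22 were the lowest tested, at 2.19, 4.22 and 6.13 TPM.

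MRPS17 and MRPS33 fell under the filter. MRPS17, a protein with a bacterial counterpart, measured 0.579, 0.753 and 0.291 TPM in control and 0.799, 0.576 and 0.363 TPM with BPA. MRPS33 measured 0.0687, 0.239 and 0.104 TPM in control and 0.342, 0.0685 and 0.733 TPM with BPA. Both groups overlapped for each gene. MRPS17 was also the 1 member of the 74 whose name had no entry in the NCBI gene table used for symbols. Proteins of 1 ribosome are assembled in fixed proportion, but the values of MRPL41 and MRPS33 lay at 490 and 0.259 TPM. The annotation and counting tool behind the values are not given. Whether the low values of MRPS33, MRPS17 and MRPL21 depend on them was not tested.

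The subunits were then set side by side in all 6 libraries. Large subunit genes summed to 4072, 3840 and 4037 TPM in control replicates 1, 2 and 3, and small subunit genes to 1229, 1175 and 1206 TPM. With BPA the large subunit summed to 4013, 3925 and 3203 TPM and the small to 1192, 1225 and 1035 TPM. The large sum was 3.31, 3.27 and 3.35 times the small in control and 3.37, 3.204 and 3.09 times with BPA. These ratios overlapped between groups, at 3.31 ± 0.0398 (SD, n = 3) and 3.22 ± 0.137 (SD, n = 3), and BPA replicate 3 had the lowest.

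**Figure D2:**
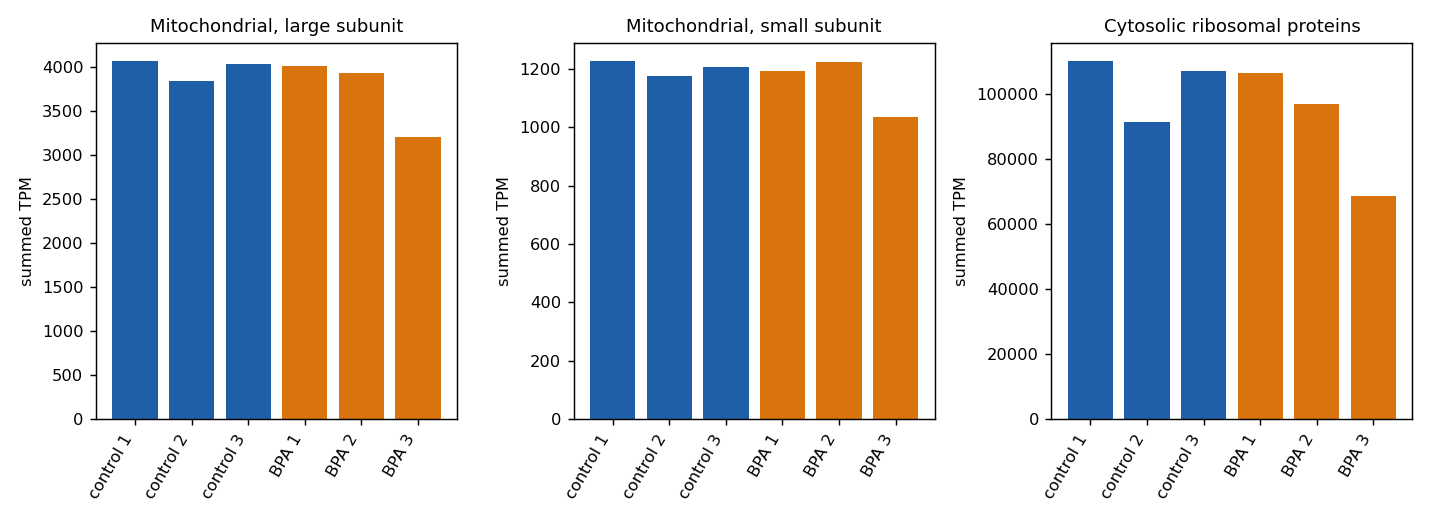
Summed TPM of the large subunit genes, of the small subunit genes and of the cytosolic ribosomal protein genes in each library (blue, control; orange, BPA), 1 bar for each library. The bar of BPA replicate 3 is the lowest in all 3 panels, at 3203, 1035 and 68462 TPM.

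Part of this gap is the number of genes. Per gene, the large subunit averaged from 1.78 times (BPA replicate 3) to 1.93 times (BPA replicate 1) the small. MRPL41 and MRPL57 made up from 23.1% to 24.3% of the large subunit's sum, and without this pair the ratio per gene was 1.43 to 1.55. Of the 10 members of highest mean, 9 were large subunit genes, and so were 15 of the top 20. Among the 20 of lowest mean, 11 were, while large subunit genes are 47 of the 74 overall. Whether these counts differ from that share was not tested.

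The medians separated less. The median of the tested large subunit genes was 46.9, 51.5 and 46.6 TPM in control and 43.8, 56.9 and 49.3 TPM with BPA. For the small subunit it was 43.3, 38.3 and 38.9 TPM in control and 44.5, 38.6 and 27.4 TPM with BPA. On the log2 scale the large median exceeded the small by 0.11, 0.41 and 0.25 in control, by -0.021, 0.53 and 0.82 with BPA, and by 0.35 ± 0.30 (SD, n = 6) over all. In BPA replicate 1 the small median was thus the higher. The middle small subunit gene was MRPS30 in all 6 libraries, so the small median was that gene's level.

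MRPS30 and MRPS18A carry small subunit names, but structures place both proteins in the large subunit, and MRPS36 is now assigned to an enzyme of the citric acid cycle. MRPS30 measured 43.3, 38.3 and 38.9 TPM in control and 44.5, 38.6 and 27.4 TPM with BPA. MRPS36 measured 27.3, 27.0 and 28.6 TPM in control and 36.0, 27.0 and 20.7 TPM with BPA. With the first pair moved to the large subunit and MRPS36 left out, the difference of the medians was -0.062 in place of 0.35, so no order of the subunit medians held under both assignments. The sums kept theirs, at 3241 and 976 TPM in BPA replicate 3 and 4129 and 1144 TPM in control replicate 1. These sums hold only MRPL and MRPS names. They leave out the subunit proteins with other names given below, such as CHCHD1 and AURKAIP1 of the small subunit.

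Members with a bacterial counterpart and those found only in mitochondria overlapped widely. In the large subunit the 27 tested with a counterpart had a median of 61.3 TPM (1.93 to 198 TPM) and the 19 mitochondrial ones 44.1 TPM (2.41 to 490 TPM). In the small subunit the medians were 50.1 TPM over 15 and 35.7 TPM over 10. The more abundant MRPL41, MRPL57, MRPL51 and MRPL53 were all of the mitochondrial kind.

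By position in the ribosome, the factor-binding stalk that recruits translation factors had the highest median of the sites set apart, 88.7 TPM. MRPL11 averaged 116 TPM, MRPL12, which is also known to bind mitochondrial RNA polymerase, 88.7 TPM, and MRPL10 44.3 TPM. Near the peptidyl transferase centre, where peptide bonds form, MRPL16 averaged 144 TPM, MRPL4 78.0 TPM, MRPL27 73.4 TPM, MRPL2 69.3 TPM and MRPL3 10.99 TPM. MRPL3 thus lay far below the other members of that site. At the exit of the peptide tunnel MRPL24, MRPL23 and MRPL22 averaged 78.2, 43.5 and 8.05 TPM, and MRPL45, which touches the inner membrane, 23.3 TPM. In the central protuberance MRPL40 (134 TPM) and MRPL18 (133 TPM) stood above MRPL38 (44.1 TPM), MRPL46 (16.2 TPM) and MRPL48. Apart from MRPL10, MRPL11, MRPL12, MRPL3, MRPL4, MRPL23 and MRPL48, the members of these sites were chosen for mention after their values were seen.

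In the small subunit MRPS12, a protein of the decoding centre, averaged 59.1 TPM and MRPS5, at the mRNA entrance, 19.4 TPM. Head proteins ranged from MRPS14 (8.30 TPM) and MRPS9 (8.74 TPM) to MRPS10 (26.7 TPM) and MRPS7. The S18 family has 3 paralogues in mammals, of which MRPS18B averaged 67.7 TPM, MRPS18C 54.7 TPM and MRPS18A 12.9 TPM. MRPS18A lay under both others in every library. Some members are linked to inherited mitochondrial disease in people. Of these, MRPL44 averaged 20.2 TPM, MRPS23 45.3 TPM, MRPS22 6.13 TPM and MRPS28 2.19 TPM, beside a median of 44.3 TPM for the tested members. This is not a full list of such members. MRPL58, a release factor relative that frees stalled peptides, averaged 34.3 TPM. MRPS5, MRPS9 and MRPS10 were named after their values were seen. MRPS16 was not analysed here.

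No mitochondrial ribosomal protein gene passed the test of BPA against control. By limma with Benjamini-Hochberg adjustment over all tested genes, 0 of the 71 had an adjusted p under 0.05, where 0% of the 12277 tested genes did. Without adjustment, 0 members reached a p under 0.05 upward and 0 downward, against 1.87% and 1.7% of all tested genes. The smallest unadjusted p of a member was 0.151. Log2 changes ran from -0.29 to 0.40, with a median SE of 0.15 for the members and for all tested genes.

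More members lay below control than above it. With all 6 libraries 59 of 71 (83.1%) had a BPA mean below the control mean, against 43.4% of tested genes, and the median log2 change was -0.13 against 0.031. The large subunit had 39 of 46 below (median -0.14) and the small 20 of 25 (median -0.10). Without BPA replicate 3 the members came close to all tested genes: 40 of 71 (56.3%) lay above control, against 57.6%. The median was then 0.008 (0.008 large, 0.012 small), against 0.023 for all tested genes, and again 0 were called. Leaving out control replicate 2 as well gave 29 of 71 above and a median of -0.020, against 63.9% and 0.045 for all tested genes.

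**Figure D3:**
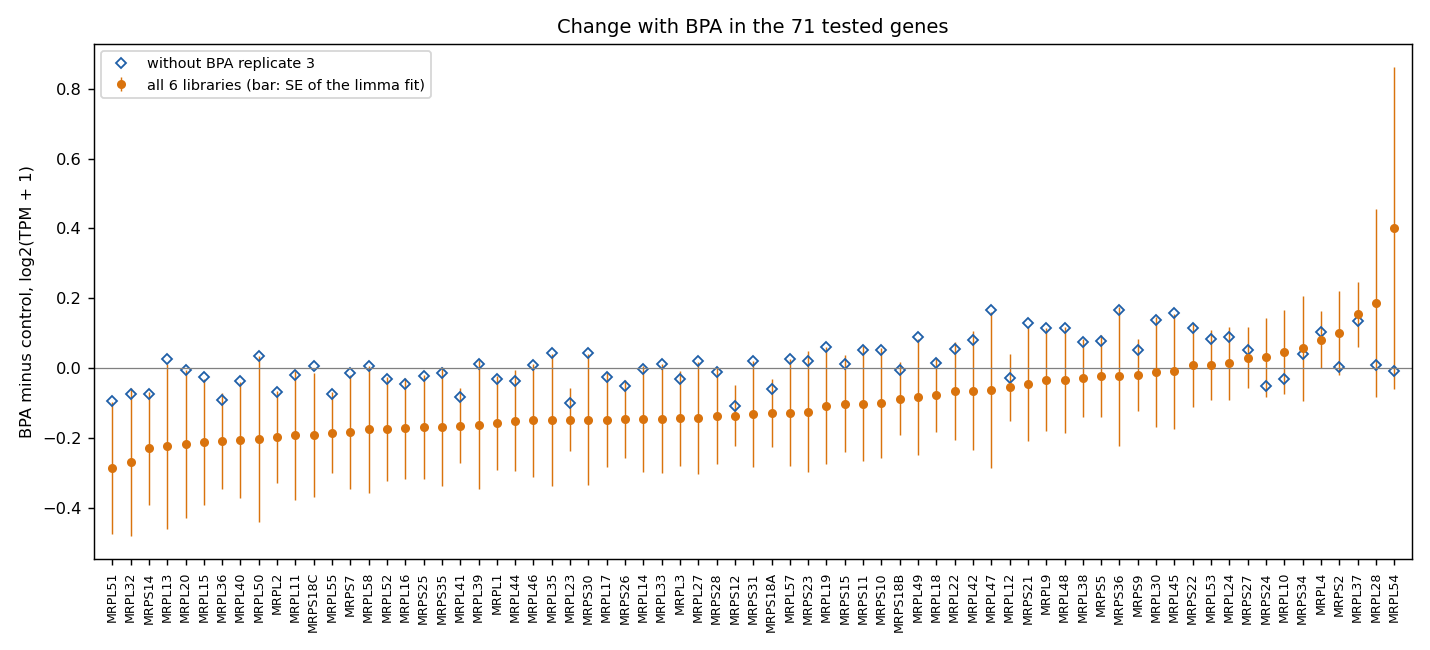
Difference between BPA and control on the log2(TPM + 1) scale for the 71 tested genes with all 6 libraries (orange circles, bars 1 SE of the limma fit) and without BPA replicate 3 (blue diamonds). With all libraries 59 circles lie below 0, and without that library 40 diamonds lie above it.

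In 3 members every BPA library lay below every control library, and in 0 above. These 3 are 4.23% of the tested members, close to the 3.98% of all tested genes below control without overlap. In the upward direction that background is 5.38%. MRPL55, a mitochondria-specific protein, measured 77.5, 75.7 and 77.1 TPM in control and 71.6, 74.3 and 57.7 TPM with BPA. Its log2 change was -0.18 (SE 0.12), with an adjusted p of 0.901 by limma, and -0.074 without BPA replicate 3. MRPS12 measured 59.0, 66.4 and 60.6 TPM in control and 55.8, 58.8 and 54.2 TPM with BPA. The gap between its groups, from 58.8 to 59.0 TPM, is small beside the spread within each, and its log2 change was -0.14 (SE 0.087, adjusted p = 0.901 by limma). MRPS18A measured 13.7, 13.6 and 13.2 TPM in control and 13.0, 12.8 and 11.1 TPM with BPA.

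Of the lower members with the smallest p, MRPL23 came first. This protein at the tunnel exit measured 47.1, 42.9 and 47.3 TPM in control and 42.3, 43.0 and 38.4 TPM with BPA. BPA replicate 2 lay above control replicate 2, so the groups overlapped, and the log2 change was -0.15 (SE 0.090, adjusted p = 0.901 by limma). MRPL36, a small zinc-binding protein with a bacterial counterpart, measured 112, 107 and 116 TPM in control and 95.6, 115 and 81.9 TPM with BPA. MRPL36 and MRPL41 had log2 changes of -0.21 (SE 0.14) and -0.16 (SE 0.11). Without BPA replicate 3 these were -0.091 and -0.082, and that of MRPL23 was -0.10.

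Of the higher members MRPL37 came first. It measured 24.9, 27.3 and 23.6 TPM in control and 26.8, 28.8 and 28.9 TPM with BPA, where BPA replicate 1 lay below control replicate 2. Its log2 change was 0.15 (SE 0.093, adjusted p = 0.901 by limma) and 0.14 without BPA replicate 3. With limma's array weights its adjusted p was 0.0482, in a fit that gave BPA replicate 2 a weight of 7.07 and control replicate 3 one of 3.96, against 0.115 for BPA replicate 3 and 0.371 for BPA replicate 1. That fit called 881 of the 12277 tested genes. MRPL4 measured 75.2, 74.1 and 77.9 TPM in control and 77.6, 85.4 and 77.8 TPM with BPA, a log2 change of 0.082 (SE 0.081), which was -0.003 after median centring. MRPS2 had a log2 change of 0.10 (SE 0.12), and 0.004 without BPA replicate 3.

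The main pattern among the members was between libraries. In BPA replicate 3, 61 of the 71 tested members had their lowest value of the 6 libraries (85.9%), against 42.4% of all tested genes. This held for 40 of 46 large subunit genes and 21 of 25 small. The members' median in that library was -0.40 relative to the control mean, -0.42 for the large and -0.39 for the small subunit, and ran from -0.72 to 1.22. The median of all tested genes there was -0.009. In the other 5 libraries the members' median lay between -0.070 (control replicate 2) and 0.050 (control replicate 1).

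**Figure D4:**
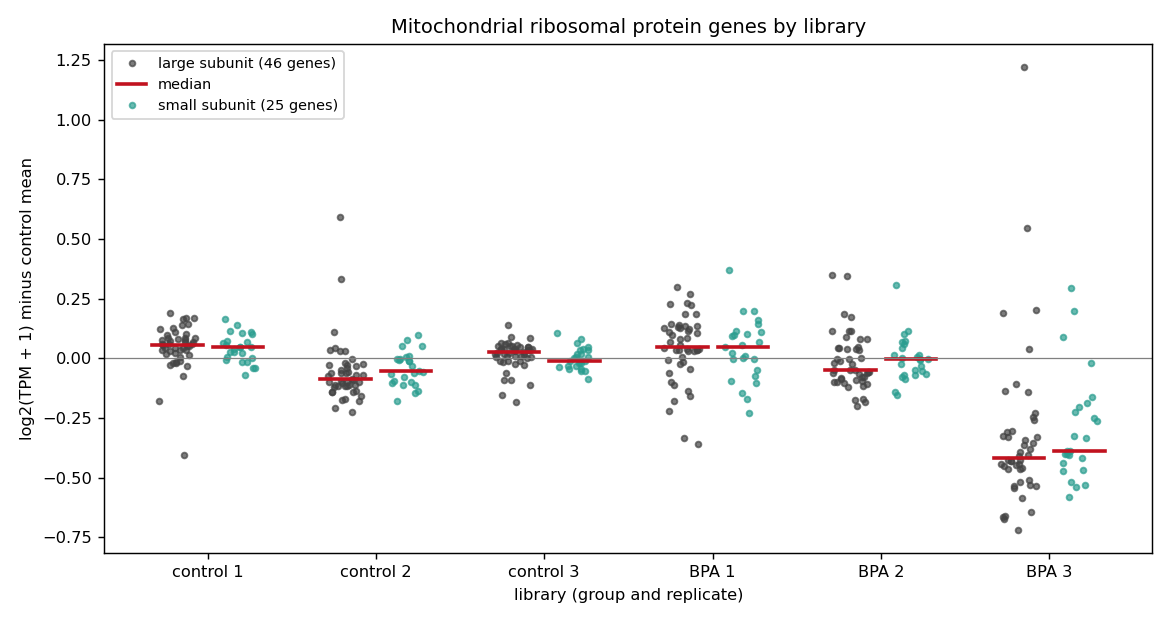
Each tested gene's log2(TPM + 1) minus its control mean, by library, with large subunit genes in grey, small subunit genes in green and the median of each as a red bar. Points of BPA replicate 3 centre on -0.42 and -0.39, with MRPL54 at 1.22.

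Control replicate 2 leaned the same way within its group. It was the lowest control library for 52 of 71 members, against 35.4% of all tested genes. For 51 members it was the lowest control and BPA replicate 3 the lowest BPA library, 36 of 46 large (78.3%) and 15 of 25 small (60%), against 31.3% of all tested genes. Whether this share differs between the subunits was not tested. The spread within groups differed likewise: the median coefficient of variation was 6.23% in control and 18.2% with BPA, and 69 of the 71 had the larger value with BPA. Over all tested genes these medians were 8.38% and 19.4%, so the wider spread with BPA was not particular to the members. The share of all tested genes with the larger value with BPA was not counted.

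The 6 members farthest below control in BPA replicate 3 were all large subunit genes: MRPL13, MRPL50, MRPL51, MRPL32, MRPL20 and MRPL15, at -0.72, -0.67, -0.67, -0.66, -0.64 and -0.58. Most were named after their values were seen, the exceptions being MRPL50 and MRPL51. MRPL51 measured 244, 204 and 238 TPM in control and 226, 202 and 143 TPM with BPA. MRPL50, among the 3 members of largest spread, measured 111, 101 and 104 TPM in control and 127, 91.4 and 65.6 TPM with BPA. Its highest and its lowest library were thus both in the BPA group, and its log2 change was -0.20 (SE 0.24).

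Another 6 tested members went the other way, with their highest value in BPA replicate 3 and, among controls, in control replicate 2: MRPL54, MRPL28, MRPS2, MRPL10, MRPS24 and MRPL37. MRPL54, a mitochondria-specific protein, varied most of all members. It measured 39.2, 79.4 and 45.9 TPM in control and 40.5, 66.8 and 123 TPM with BPA. The highest library was 3 times the lowest, both groups spanned a wide range, and the log2 change was 0.40 (SE 0.46, adjusted p = 0.901 by limma) and -0.008 without BPA replicate 3. MRPL28, with a bacterial counterpart, measured 113, 162 and 115 TPM in control and 101, 163 and 187 TPM with BPA. Its log2 change was 0.19 (SE 0.27), and 0.008 without BPA replicate 3.

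**Figure D5:**
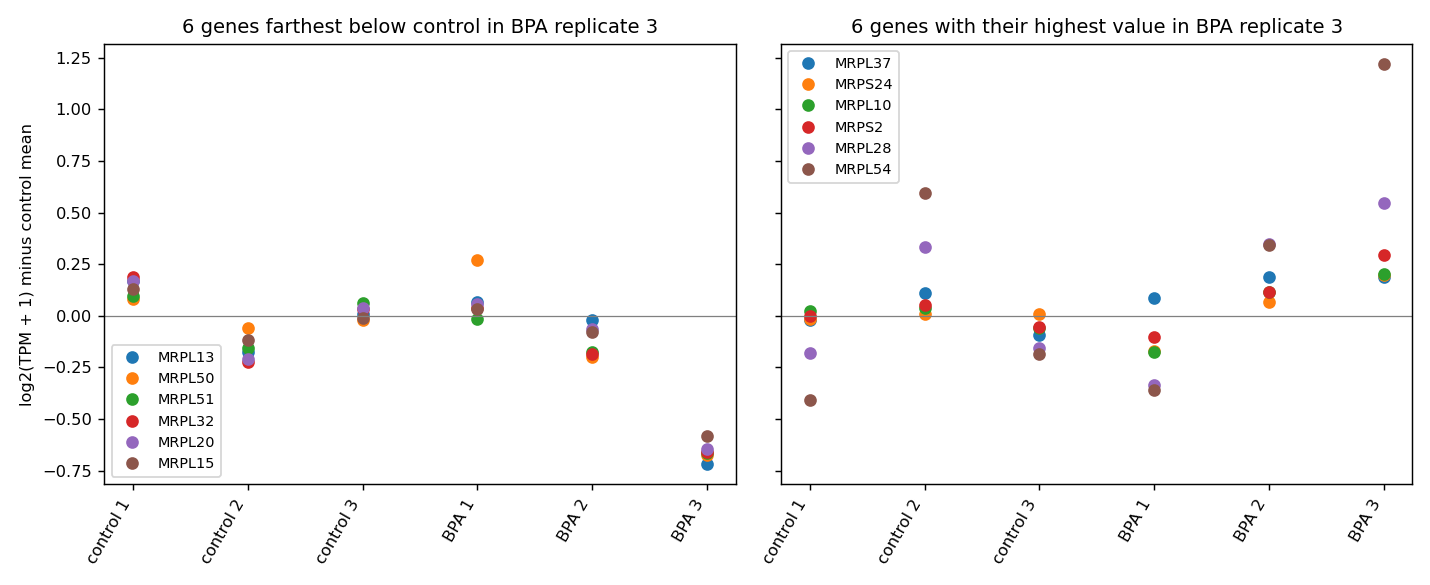
log2(TPM + 1) minus the control mean in each library for the 6 genes farthest below control in BPA replicate 3 (left) and the 6 tested genes with their highest value there (right), chosen on these values. MRPL54 and MRPL28 lie high in control replicate 2, BPA replicate 2 and BPA replicate 3, and the 6 genes on the left lie below 0 in control replicate 2 and BPA replicates 2 and 3.

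MRPS2 measured 102, 106 and 98.3 TPM in control and 94.9, 110 and 125 TPM with BPA. MRPL10 of the stalk measured 44.2, 44.5 and 41.6 TPM in control and 38.3, 47.1 and 50.1 TPM with BPA. Its stalk partner MRPL11 measured 121, 113 and 135 TPM in control and 134, 109 and 84.1 TPM with BPA. These stalk proteins did not share a pattern, since MRPL11 was lowest where MRPL10 was highest. MRPL12 measured 93.1, 93.2 and 84.9 TPM in control and 82.0, 95.6 and 83.7 TPM with BPA and followed neither. At the other sites most or all members were lowest in BPA replicate 3: 5 of 5 in the central protuberance, 4 of 4 at the tunnel exit, 4 of 4 in the head and 4 of 5 near the peptidyl transferase centre.

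The S18 paralogues differed in the size of this dip. MRPS18C measured 58.9, 57.7 and 57.1 TPM in control and 57.8, 58.4 and 38.3 TPM with BPA, so that 5 libraries agreed closely and BPA replicate 3 lay apart. MRPS18B measured 72.1, 69.5 and 67.6 TPM in control and 72.4, 66.5 and 58.4 TPM with BPA. By level, the median in BPA replicate 3 was -0.40 in the lower 35 members by mean TPM and -0.39 in the upper 36. More of the lower members had their lowest value there, 33 against 28, and fewer had a BPA mean above control, 3 against 9. Whether these counts differ was not tested.

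MRPL46 and MRPS11 were the 1 pair of members that are adjacent protein-coding genes in the NCBI table of the dog assembly UU_Cfam_GSD_1.0. MRPL46 measured 17.2, 16.5 and 17.3 TPM in control and 18.6, 15.7 and 12.1 TPM with BPA. MRPS11 measured 38.2, 30.7 and 33.5 TPM in control and 36.6, 34.0 and 25.4 TPM with BPA. Both were lowest in BPA replicate 3, as were most members, and MRPS11 lay above MRPL46 in every library. This pair was named after its values were seen.

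Other proteins of the mitochondrial ribosome carry names outside the rule. CHCHD1 and AURKAIP1, small subunit proteins, averaged 236 and 229 TPM over the 6 libraries, above every MRPS gene. GADD45GIP1, of the large subunit, averaged 83.5 TPM, DAP3, a GTP-binding small subunit protein known from apoptosis, 21.2 TPM, and PTCD3, an RNA-binding small subunit protein, 16.8 TPM. OXA1L, the insertase that receives new chains at the inner membrane, averaged 21.0 TPM. OXA1L is not a subunit of the ribosome and was listed with these genes as its membrane anchor. CHCHD1 measured 277, 229 and 272 TPM in control and 254, 218 and 163 TPM with BPA, a log2 change of -0.31 (SE 0.18) that limma did not call (adjusted p = 0.901), and AURKAIP1 one of -0.13 (SE 0.11). Without BPA replicate 3 these were -0.135 and -0.039. Of these 6 genes 5 lay below control and 5 were lowest in BPA replicate 3, with OXA1L the exception in both counts. The shares over all tested genes were 43.4% and 42.4%.

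The other genes of mitochondrial translation were not all low in BPA replicate 3. Factors that assemble the ribosome or modify its RNA had 20 of 25 tested members above control (median 0.064), against 56.6% of all tested genes (0.031). Of the 25, 13 had their highest value in BPA replicate 3, against 38.9% of all tested genes. The list summed to 493, 550 and 494 TPM in control and 499, 573 and 664 TPM with BPA. NOA1, a GTPase needed for the small subunit, and MRM3, a methyltransferase of the large subunit RNA, had log2 changes of 0.27 (SE 0.15) and 0.14 (SE 0.077), and 0.17 and 0.13 without BPA replicate 3. Translation factors and mRNA handling genes had 5 of 14 above control (median -0.032) and 12 lowest in BPA replicate 3, against 42.4% of all tested genes. TSFM, the exchange factor for the elongation factor TUFM, measured 82.0, 70.05 and 80.2 TPM in control and 73.3, 66.6 and 51.2 TPM with BPA (log2 change -0.29, SE 0.16), and SLIRP, which steadies mitochondrial mRNAs, had one of -0.15 (SE 0.14). Without BPA replicate 3 these were -0.142 and -0.011.

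Mitochondrial aminoacyl-tRNA synthetases had 10 of 16 (62.5%) above control (median 0.037), close to the 56.6% of all tested genes (0.031). Among them were HARS2 at 0.17 (SE 0.11) and EARS2 at 0.12 (SE 0.11), which were 0.11 and 0.064 without BPA replicate 3. Regulators of mitochondrial transcription and biogenesis had 9 of 14 (64.3%) above control (median 0.12). In BPA replicate 3, 8 of the 14 (57.1%) were highest, against 38.9% of all tested genes. The coactivator gene PPARGC1B had a log2 change of 0.37 (SE 0.26), and TEFM, an elongation factor of mitochondrial transcription, one of -0.20 (SE 0.23). Without BPA replicate 3 these were 0.10 and 0.020. By limma 0 members of these 5 lists were called, and 0 had an unadjusted p under 0.05 in either direction. With limma's array weights NOA1 and MRM3 had adjusted p-values of 0.0454 and 0.0486, in a fit that called 881 of the 12277 tested genes. Without BPA replicate 3 the assembly list had 19 of 25 above control (median 0.064) and the translation factor list 9 of 14 (0.038). The synthetases then had 8 of 16 above control (median -0.002) and the regulators 8 of 14 (0.007). Of all tested genes 57.6% then lay above control (median 0.023). Mitochondrially encoded mRNAs were not analysed here.

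Cytosolic ribosomal proteins, the nuclear-encoded proteins of the ribosome outside mitochondria, stood lower still in BPA replicate 3. Their 71 genes, the same number as the tested mitochondrial members, had a median of -0.58 there and 70 were lowest in that library. They summed to 110239, 91349 and 107125 TPM in control and 106325, 96944 and 68462 TPM with BPA. Without BPA replicate 3, 23 of 71 lay above control, against 40 of 71 for the mitochondrial members. Reads of cytosolic ribosomal genes may be shared with near-identical copies, so their levels are uncertain.

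Stromal markers were also unequal between libraries. The 7 of 8 listed markers in the table summed from 6442 to 11767 TPM in the other 5 libraries and to 27856 TPM in BPA replicate 3, of which COL1A1, the main fibrillar collagen gene, made up 24502 TPM. COL1A1 was also highest of the controls in control replicate 2, at 8114 TPM against 2170 and 3903 TPM. LUM and DCN went the other way, at 2005 and 1005 TPM in BPA replicate 3, their lowest values. All 6 tested stromal markers had a BPA mean above control (median log2 change 0.50), against 56.6% of all tested genes. Without BPA replicate 3 this held for 3 (median 0.051). PDGFRA measured 71.1, 83.9 and 69.0 TPM in control and 95.4, 94.7 and 128 TPM with BPA, so its groups did not overlap. Its log2 change was 0.49 (unadjusted p = 0.0199, adjusted p = 0.901 by limma), and 0.35 without BPA replicate 3. Of the adipocyte markers 6 of 7 lay above control, against 56.6% of all tested genes. Their median log2 change was 1.18, and 1.10 without BPA replicate 3. By limma 5 were higher at an unadjusted p under 0.05, against 1.87% of all tested genes, and 0 were called after adjustment. LEP lay below control, with an unadjusted limma p of 0.0431. ADIPOQ measured 9.47, 14.7 and 7.99 TPM in control and 32.3, 40.4 and 26.2 TPM with BPA, so its groups did not overlap. The 7 summed to 606 to 714 TPM in control and to 875, 894 and 623 TPM with BPA, a sum carried mostly by LPL. The 4 immune markers summed to 28.0 to 39.2 TPM in control and to 30.7, 39.6 and 51.8 TPM with BPA. The part of these markers in the members' values was not tested. With TPM rescaled without the 20 most abundant genes, the members' median log2 change was -0.14, close to that with all genes. Whether abundant genes lowered the members' values was not tested.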

How the data were processed

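Values of 6 poly(A) RNA libraries were read from 1 table in which the authors deposited log2 values of normalized TPM. Raising 2 to each value and subtracting 1 gave 1000000 per library, so the pseudocount is 1. Per the labels' protocols the kit was a stranded mRNA kit; the sources used here do not give the aligner, counting tool, build or annotation, so no coordinates are printed, and depth is unknown. TPM is a share of a library, so a few abundant genes can lower the values of the rest. The BPA and control groups were compared with limma (version 3.58.1, under R 4.3.3) over all 12277 tested genes (trended empirical Bayes, two-sided, Benjamini-Hochberg, threshold 0.05), checked on simulated data. The members and lists were chosen with earlier results of these data known. Named members were the 5 highest and 3 lowest per subunit, the 5 of smallest p in each direction, the 3 of largest spread, those below the filter and a set with known roles; others are marked. Lists are described by counts and medians. Deviations from the group mean correlated at 0.718, -0.44 and -0.232 between the control and BPA libraries of replicate numbers 1, 2 and 3. With n = 3 per group these values cannot show whether a number marks a shared animal or culture. NCBI's gene table held 73 of the 74 symbols.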

Additional observations from a re-analysis of the deposited data

How the results depend on the processing

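Alternatives were pseudocounts of 0.1 and 5, the filter dropped or raised to a mean of 3, quantile normalization, median centring, rescaling without the 20 most abundant genes, no trend, robust fitting, array weights (set gene by gene, since the default estimate did not converge), the replicate number as a block, the first principal component as a covariate, leaving out libraries, and subunits by structure. The count of members called was 0 in all but array weights, where it was 1 (MRPL37) among 881 genes called. No filter called 6 genes of 23299, the component 4, the fit without BPA replicate 3 called 1, and that without control replicate 2 as well 2, none of them members. With the replicate block 0 members were called, and the median change was -0.132. The number of members above control, 12 with all libraries, was 4 after median centring, 6 after quantile normalization, 24 with array weights, 25 with the component, 29 without BPA replicate 3 and control replicate 2 together, and 7 (without BPA replicate 2) to 40 (without BPA replicate 3) leaving out 1 library. The median change of members ranged from -0.216 (median centring, where that of all genes was -0.053) to 0.008. The large minus small median was -0.062 with subunits by structure. Signs turned for MRPL4 (-0.003, median centring), MRPL28 (-0.010, the component) and MRPL50 (0.003, without BPA replicate 3 and control replicate 2). Leaving out 1 library, MRPL50 ranged from -0.437 to 0.034, MRPL54 from -0.008 to 0.782 and TEFM from -0.364 to 0.020, each turning without BPA replicate 3. The causes were not tested.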
